A study of Mus musculus with 6 samples.

Results

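The Pik3r1 locus was taken as the CpGs of chromosome 13 from 102420001 to 102570000 in the mouse build mm9, a span of 150 kb with the gene and its flanks. It held 1704 of the 20451903 CpGs measured. The span was chosen by measured values: a 6 kb stretch inside it, from 102460001 to 102466000, was more methylated in the mutant cells. The difference between the groups is therefore given below as a description. The counts of windows that passed the genome-wide test are likewise no independent evidence for it. LSK cells were sorted from bone marrow for lack of lineage markers and for Sca-1 and c-Kit, a gate that takes in the blood-forming stem cells and early progenitors. Samples of the Wild Type genotype (WT, 3 samples) stood against samples from Tet2/3 DKO mice (DKO, 3 samples), which lack 2 of the enzymes that oxidise 5-methylcytosine. The labels number the samples as biological replicates, but give neither the age of the mice nor the means of deletion, nor the number of mice behind a sample. Methylation was read by whole-genome bisulfite sequencing, which does not tell 5-methylcytosine from 5-hydroxymethylcytosine.

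Pik3r1 encodes p85α, the regulatory subunit of class IA phosphoinositide 3-kinase. This subunit stabilises and restrains the catalytic subunit until it binds phosphotyrosines on activated receptors and adaptors, after which the kinase makes the lipid that recruits Akt. Shorter proteins of the same gene, p55α and p50α, keep the domains that bind the receptor and the catalytic subunit and are made from start sites inside the gene. In blood stem and progenitor cells the pathway carries signals from receptors such as Kit and Flt3.

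Both Pik3r1 promoters of the RefSeq table (GRCm38.p6) could be found on the deposited CpG list by the spacing of their CpGs, which gave the landmarks for all positions below. Each fitted 1 place on the chromosome, with 6 of 6 and 34 of 34 CpGs listed. Of the 15 promoters placed within 1 Mb, these included, 12 lay at one and the same offset between the builds, and the other 3 lay 936 kb or more away. The gene is on the minus strand, so upstream means toward higher positions. The upstream start site fell at 102538172 and the internal one at 102462585, which is 75587 bp further along the gene and inside the gained stretch. In RefSeq the gene runs on for 11.9 kb past the internal start site, so the whole stretch lies within the gene. Exons and introns of mm9 were not used here. The 250 bases before each start site are shown because the pair of promoters differ in CpG content, with each CpG in capitals. The first lies at chr13:101692631-101692880 and the second at chr13:101768218-101768467, both in GRCm38.p6, minus strand.
Pik3r1 internal promoter: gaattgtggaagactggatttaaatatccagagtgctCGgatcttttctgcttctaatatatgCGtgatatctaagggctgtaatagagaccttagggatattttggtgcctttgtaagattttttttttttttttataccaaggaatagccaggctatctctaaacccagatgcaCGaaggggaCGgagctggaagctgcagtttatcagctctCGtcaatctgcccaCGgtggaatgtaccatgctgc
Pik3r1 upstream promoter: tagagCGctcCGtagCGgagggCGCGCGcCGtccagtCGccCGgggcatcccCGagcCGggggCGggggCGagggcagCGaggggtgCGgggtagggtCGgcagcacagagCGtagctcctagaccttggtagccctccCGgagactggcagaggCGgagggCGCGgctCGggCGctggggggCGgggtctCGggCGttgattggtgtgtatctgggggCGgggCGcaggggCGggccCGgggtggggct
The internal sequence holds 6 CpGs in these 250 bases and the upstream one 30. Over the 300 bases of the table, which add 50 after the start, the internal promoter has a GC content of 43.7% and an observed-to-expected CpG ratio of 0.438. The upstream promoter has 75.7% and 0.867, and 92.0% of the 31387 autosomal promoters in the table have fewer CpGs than it, against 43.2% for the internal one.

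Depth limits what can be read from a single CpG. The libraries held 70815948 to 72747248 read calls at CpGs in WT and 83560585 to 111763872 in DKO. In the locus the mean was 3.5 to 3.62 reads per CpG in WT and 4.23 to 5.48 in DKO. All 1704 CpGs had a read in some sample, and 1004 had one in every sample. Reads were summed over 1 kb windows, where a read counts once at each CpG it covers, so neighbouring CpGs share molecules. Levels are percentages of reads called methylated. The genotype labels were checked on read depth. Of the autosomal segments of 2 or more adjacent windows with almost no DKO reads there were 2, with 109 to 165 WT reads and 0 in each DKO sample on chromosome 3, and with 169 to 231 WT reads and 14, 0 and 0 DKO reads on chromosome 6, the chromosomes of Tet2 and Tet3.

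Across the 6 kb stretch the DKO cells were more methylated in every sample. Over its 127 CpGs the WT samples were at 12.5%, 13.9% and 11.5%. The DKO samples were at 34.9%, 48.0% and 33.3%. The groups did not overlap, and DKO replicate 2 stood above the other DKO samples. The WT mean was 12.6% ± 1.22 (SD, n = 3) and the DKO mean 38.7% ± 8.06 (SD, n = 3), which are 26.1 ± 4.71 points apart (SE). The stretch gave 375 to 547 reads per sample in WT and 519 to 746 in DKO. Leaving out 1 sample at a time gave differences from 21.5 points (DKO replicate 2 left out) to 28.8 points (DKO replicate 3 left out).

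**Figure D1:**
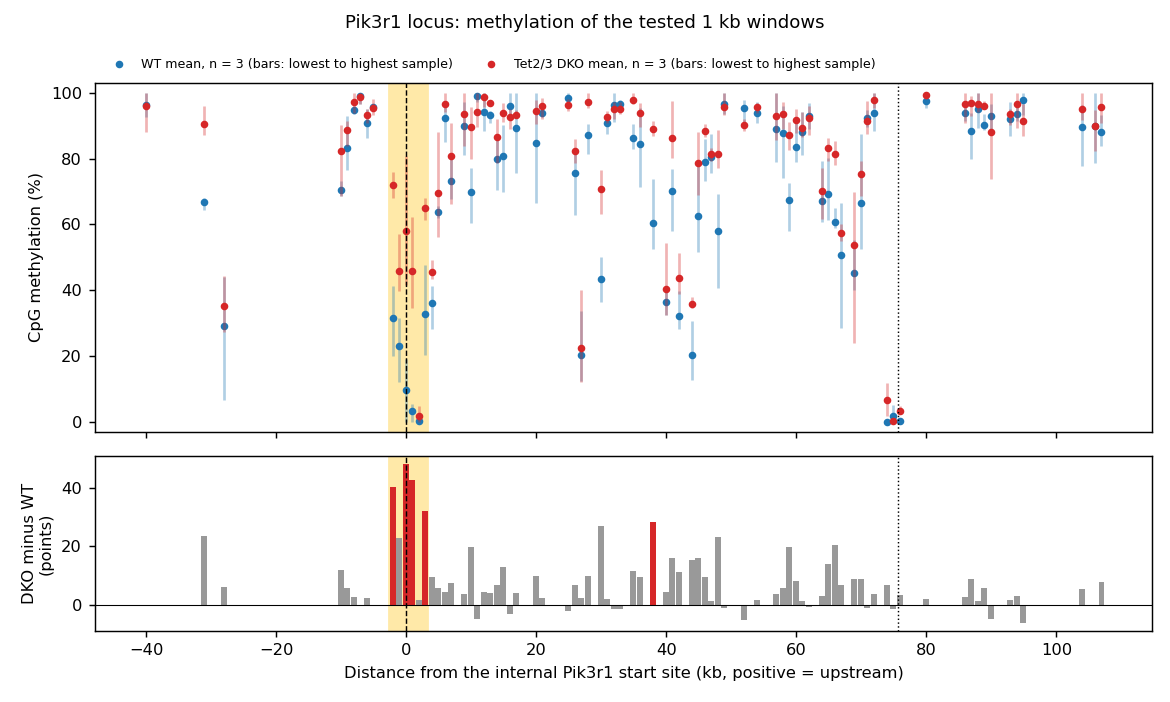
Methylation of the 81 tested 1 kb windows of the Pik3r1 locus (top, percent; points are group means of 3 samples, bars run from the lowest to the highest sample) and the difference between the means (bottom, points; red bars are windows that passed the genome-wide call), against distance from the internal start site in kb. The shaded 6 kb stretch holds 4 of the 5 red bars; the dashed line is the internal and the dotted line the upstream start site.

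The stretch was not raised evenly, and a window toward its upstream end stayed nearly unmethylated. The window from 102464001 to 102465000 holds 52 of the 127 CpGs and begins 1416 bp upstream of the internal start site. Its levels were 0%, 0.81% and 0% in WT and 0%, 4.96% and 0.48% in DKO, on 111 to 248 reads per sample. WT replicates 1 and 3 and DKO replicate 1 had no methylated read there, and a count of 0 allows up to 2.13%, 2.70% and 1.64% in them (3 counts, counting error only). Reads from the mitochondrial genome, which is taken as unmethylated, gave a methylated call in 1.28% ± 0.0797 of WT and 1.71% ± 0.17 of DKO reads (SD, n = 3). Only DKO replicate 2 lay above that background in this window. Without this window the remaining 75 CpGs differed by 38.0 ± 5.99 points (SE).

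The window with the largest difference of the stretch holds the internal start site, at 102462585. The internal promoter has only 6 of the window's 22 CpGs, and the window also takes in sequence downstream of the start site. From 102462001 to 102463000 (22 CpGs, 83 to 130 reads) the WT samples were at 9.90%, 19.3% and 0%, where a count of 0 in WT replicate 3 allows up to 3.23%. The DKO samples were at 41.7%, 80.8% and 51.5%. All DKO samples lay above all WT samples, by 48.3 points between the means. The DKO samples also differed among themselves. The dispersion of this window was 14.8 times that of binomial counting, and 0.192% of all tested windows had one as high. The genome-wide test described below pulls each dispersion toward a common value, 2.11. Its call of this window therefore did not use the full spread.

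Upstream of it, from 102463001 to 102464000 (13 CpGs, 24 to 61 reads), the WT samples were at 0% (a count of 0 that allows up to 12.5%), 5.56% and 4.35% and the DKO samples at 40.8%, 62.3% and 34.6%. The lowest DKO sample thus lay well above the highest WT sample. On the far side of the unmethylated window, from 102465001 to 102466000 (17 CpGs, 39 to 122 reads), WT had 20.5%, 30.6% and 47.8% and DKO had 65.9%, 61.5% and 67.9%. Here the WT samples were spread more widely than the DKO samples, with SDs of 13.8 and 3.30 points.

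Just downstream of the internal start site WT was at or near 0. The 200 bp tile starting at 102462401 has 7 CpGs, all downstream of the start site. There WT had 0% in all samples, on 17 to 41 reads, and DKO had 65.6%, 75.0% and 55.3%. In the adjoining tile, starting at 102462201 (6 CpGs), pooled reads gave 5.88% in WT and 56.8% in DKO. Farther downstream the stretch was already partly methylated in WT. From 102460001 to 102461000 (9 CpGs, 21 to 100 reads) WT had 33.3%, 41.5% and 20.0% and DKO had 72.2%, 76.0% and 68.0%. The window between this one and the promoter, from 102461001 to 102462000 (14 CpGs, 33 to 118 reads), had 31.7%, 25.4% and 12.1% in WT and 39.8%, 57.1% and 41.1% in DKO. It had the smallest difference of the 5 windows whose groups did not overlap, 22.9 points. DKO replicate 2 was the highest of all samples in 5 of the 6 windows of the stretch.

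**Figure D2:**
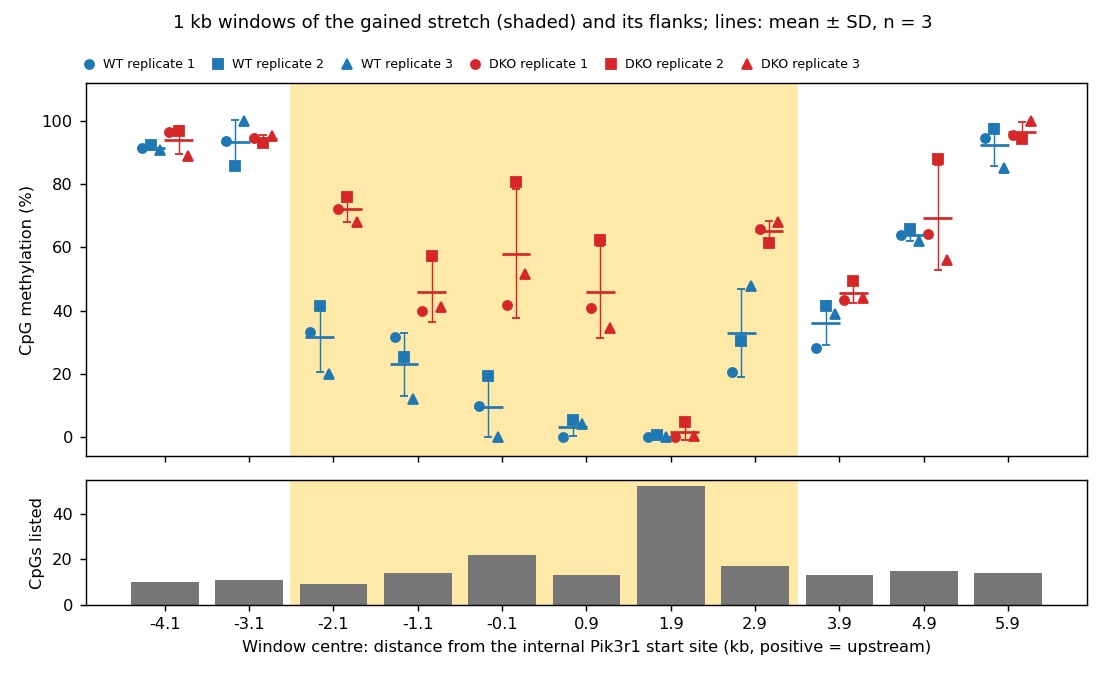
Methylation per sample (top, percent) in the 1 kb windows of the gained stretch (shaded) and its flanks, with group means and SD (n = 3), and the CpGs listed per window (bottom); the horizontal axis is the distance of the window centre from the internal start site in kb. The groups are apart in 5 of the 6 shaded windows, and the window with 52 CpGs is near 0 in all samples.

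On the downstream side the border was sharp. The 5 kb below the stretch were at 94.8% ± 1.43 (WT) and 94.7% ± 0.389 (DKO; SD, n = 3), with a difference of -0.0746 ± 0.853 points (SE). The last CpG before the border, at 102459682, is followed by 466 bp without a CpG. In the first CpGs after it, at 102460148 and 102460194, WT had 3 of 5 and 6 of 14 pooled reads methylated and DKO 17 of 20 and 17 of 25. At 102460281 and 102460354 WT had 0 of 9 and 0 of 7, and DKO 18 of 24 and 20 of 25. The next CpGs, at 102460389 and 102460406, had 5 of 10 and 3 of 11 in WT and 24 of 27 and 21 of 21 in DKO. WT thus dropped to a mixed, partly methylated state at the border. The CpG at 102459682 itself had 0 WT reads.

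On the upstream side the WT level climbed over several windows and the difference faded with it. From 102466001 to 102467000 (13 CpGs) WT had 28.3%, 41.4% and 38.8% and DKO had 43.4%, 49.3% and 44.0%. These groups did not overlap, but the means differed by 9.41 points. In the next window, from 102467001 to 102468000, WT had 64.0%, 65.7% and 61.9% and DKO had 64.2%, 87.9% and 56.1%, so the groups overlapped. From 102468001 to 102469000 both were nearly full, at 92.3% ± 6.53 and 96.6% ± 3.02 (SD, n = 3). The WT cells were thus still low in the window next to the stretch, where a smaller difference remained. Where the gain ends on this side depends on the windows and on the difference required.

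As a run of adjacent windows with all DKO samples above all WT samples by 10 points or more, the gain spanned 4 kb, from 102460001 to 102464000, and the fifth window followed beyond the unmethylated one. With 500 bp windows the longest run was 2.0 kb, from 102462001 to 102464000. A minimum of 30 points also gave 2.0 kb. Both shorter runs covered the internal promoter and sequence upstream and downstream of it. Of all autosomal windows with 3 CpGs and 5 reads in every sample, 4.02% met the rule at 10 points, and 21 windows of the locus did.

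**Figure D3:**
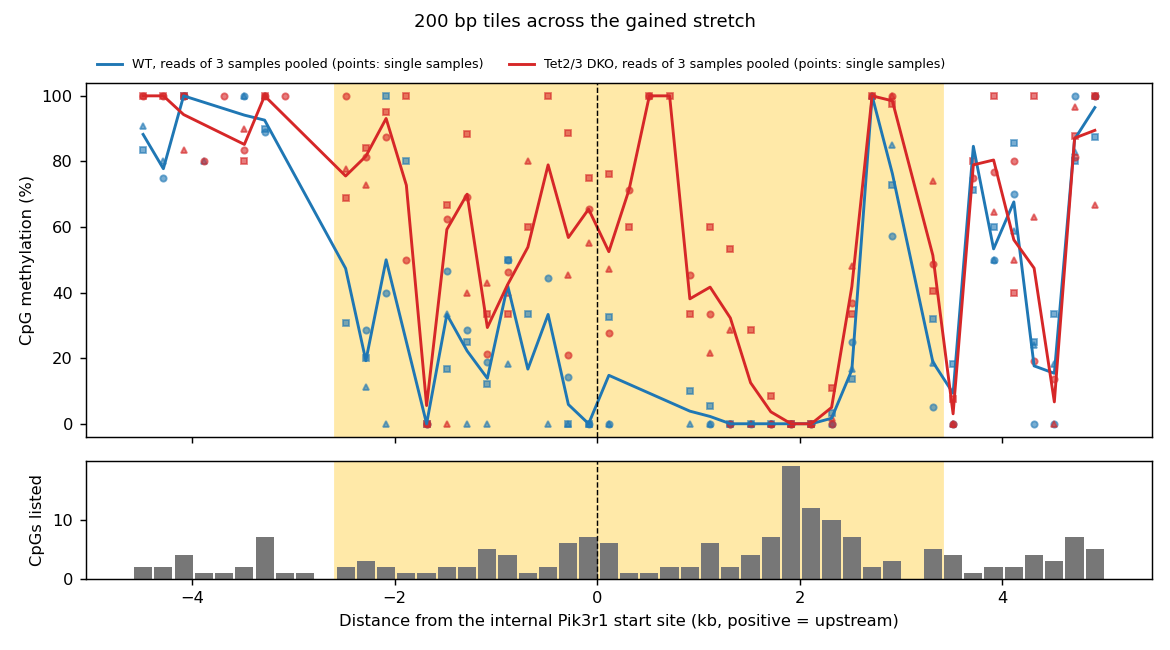
Methylation in 200 bp tiles (top, percent; lines are pooled reads of 3 samples, drawn where a group has at least 10 reads, and points are single samples with at least 5 reads) and CpGs listed per tile (bottom), against distance from the internal start site in kb. Both groups meet near 0 where CpGs are densest, about 2 kb upstream of the start site. Downstream of that the DKO line is mostly the higher one, and beyond the stretch the lines cross.

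Grouped by the number of CpGs nearby, in classes chosen after the values were seen, the gain was near 0 only in the densest class. In the stretch, 46 CpGs had 1 to 4 CpGs within 100 bp, themselves included. Their WT mean was 27.9% ± 6.01 and their DKO mean 64.5% ± 9.15 (SD, n = 3). Another 46 CpGs had 5 to 9, and were at 4.94% ± 3.34 in WT and 34.9% ± 6.57 in DKO. The 35 CpGs with 10 or more were at 0% in WT, where 0 of 315 reads allows up to 0.952%, and at 1.03% ± 1.24 in DKO. All 35 lie from 102464453 to 102465000, inside the unmethylated window, so density and position cannot be told apart here. The groups did not overlap in the first pair of classes, where DKO was higher by 36.6 ± 6.32 and 29.9 ± 4.25 points (SE). In the densest class the DKO samples were at 0%, 2.41% and 0.67%, around the mitochondrial background.

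With the reads of 3 samples added up, and so with no replicate error, 69 CpGs of the stretch had at least 10 reads in both groups. Of these, 44 were higher in DKO, 5 were lower and 20 were at 0 in both. Below 20% in WT were 55 of them. In DKO 14 of those 55 reached 50% or more, 10 lay between 20% and 50%, and 31 stayed below 20%. Of the 31 that stayed low, 25 lay in the window with 52 CpGs and 6 elsewhere. The CpG at 102460996 was one of the latter, with 0 of 16 reads methylated in WT and 1 of 18 in DKO.

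**Figure D4:**
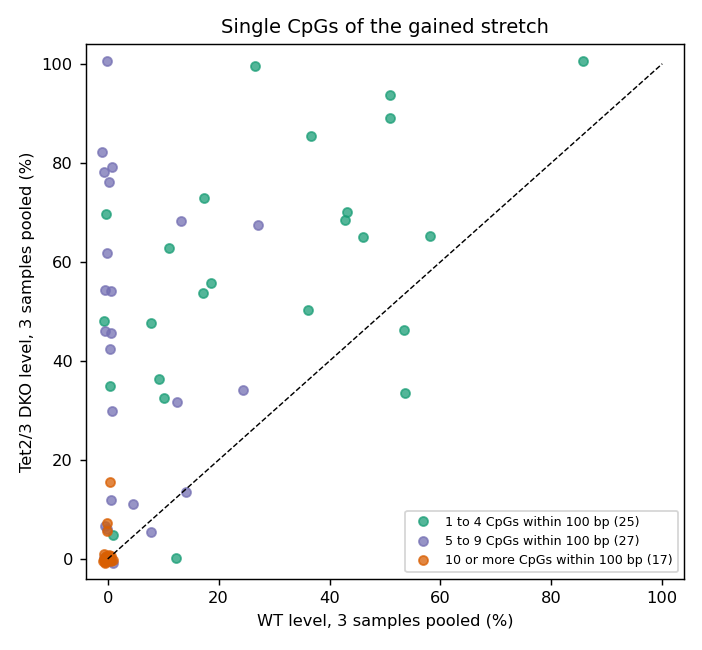
Level of each of 69 single CpGs of the stretch in DKO against WT (percent, reads of 3 samples pooled, at least 10 reads per group; points moved by up to 1 point to part them), coloured by the number of CpGs within 100 bp. The 17 CpGs with 10 or more CpGs within 100 bp sit near 0 on both axes, and most of the others lie above the dashed line of equality.

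The 6 CpGs of the internal promoter show how few molecules stand behind the fine detail. In WT, 0 of 21, 13 of 40 and 0 of 27 reads were methylated in replicates 1 to 3. In DKO, 8 of 29, 29 of 38 and 16 of 34 were. The levels were thus 0%, 32.5% and 0% in WT, where the counts of 0 allow up to 14.3% and 11.1%, and 27.6%, 76.3% and 47.1% in DKO. WT replicate 2 exceeded DKO replicate 1, so the groups overlapped in these 300 bases. These levels are not adjusted for which of the 6 CpGs the reads covered. The difference of the means was 39.5 ± 17.8 points (SE), or 26.5 points when DKO replicate 2 was left out and 50.9 points when DKO replicate 1 was.

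Along the printed internal sequence, counted from 1 at its 5′ end, the CpGs start at bases 38, 64, 177, 186, 216 and 230. The pair farthest from the start site, at bases 38 and 64, had 7 of 16 and 4 of 11 pooled WT reads methylated. All of those methylated reads came from WT replicate 2, which also held most reads there, 11 and 9. WT replicate 1 had 3 and 2 reads at this pair, and WT replicate 3 had 2 and 0. In DKO the pair had 12 of 17 and 8 of 16. At base 216, WT had 0 of 15 and DKO 12 of 17. The CpG nearest the start site, at base 230, was low in both groups, with 0 of 10 and 2 of 16. The SD between replicates in these 300 bases was 2.77 times counting error in WT and 2.83 times in DKO. That spread includes any difference in which CpGs the reads covered.

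The upstream promoter, with its 34 CpGs, was at or near 0 in both groups. WT had 0 methylated of 278 pooled reads, which allows up to 1.08%. The DKO samples were at 0%, 4.29% and 0%, where 0 reads allow up to 4.41% and 4.17%. The 152 CpGs of the surrounding pair of windows, from 102537001 to 102539000, had means of 1.26% ± 1.87 (WT) and 1.47% ± 1.04 (DKO; SD, n = 3), with overlapping samples. The pair of windows differed from each other. The window with the start site, from 102538001 to 102539000 (73 CpGs, 136 to 393 reads), had 0.94%, 0% and 0% in WT, where counts of 0 allow up to 2.21% and 0.987%, and 2.78%, 5.09% and 2.65% in DKO. Every DKO sample there lay above the WT samples and above the mitochondrial background, by low levels. The other window, from 102537001 to 102538000 (79 CpGs), was at 5.31% in WT replicate 2 and at 0% to 0.79% in the other samples. At the gene-body edge, from 102536001 to 102537000 (11 CpGs), WT had 0% in all samples, with limits of 5%, 12.5% and 6.82%, and DKO had 12%, 2.02% and 6.41%.

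Outside the stretch the locus was higher in DKO by a smaller amount. Its other 1577 CpGs were at 70.7%, 73.2% and 69.4% in WT and at 75.1%, 76.6% and 76.4% in DKO. The means were 71.1% ± 1.94 and 76.0% ± 0.829 (SD, n = 3), a difference of 4.93 ± 1.22 points (SE), and the groups did not overlap. All autosomal CpGs differed by 0.787 ± 0.510 points (SE). The gene between the stretch and the upstream promoter windows (872 CpGs) had a WT mean of 72.9% ± 0.939 and a DKO mean of 80.02% ± 2.43. The sequence above the promoter windows (225 CpGs) was at 90.3% ± 0.633 and 93.7% ± 0.878, and that below the stretch (328 CpGs) at 83.3% ± 1.38 and 86.5% ± 0.872 (SD, n = 3). The groups did not overlap in any of these 3 pieces.

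By windows, 59 of the 75 tested outside the stretch had a higher DKO mean, where 58.2% of all tested windows did. The median difference was largest, at 15.9 points, in windows of intermediate level. At a mean level of 50 to 80%, all 17 windows were higher in DKO and 8 had groups that did not overlap, beside 19.1% of all such windows. Their median was 66.8% in WT and 81.5% in DKO. At 0 to 10% the groups were apart in 2 of 3 windows, at the upstream promoter and its gene-body edge, beside 10.7%. At 10 to 50% the groups were apart in 2 of 7 windows, beside 19.2%, and at 80 to 100% in 6 of 48, beside 7.18%. The locus was chosen on this contrast, so nothing is read from these shares.

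Several other low-methylated windows of the locus did not share the size of the gain. Of the windows tested outside the stretch, 11 had a WT mean under 50%, and 8 of these differed by less than 10 points. Of the 11, 8 had a WT mean of 10% or more, and 5 of those 8 differed by less than 10 points. Among these 5 is the window next to the stretch, from 102466001 to 102467000. The groups did not overlap in 5 of the 11. The share among all windows with a WT mean under 50% was not counted, so nothing is read from this. From 102489001 to 102490000 (19 CpGs, 54 to 125 reads) WT had 33.9%, 14.8% and 12.5% and DKO had 15.2%, 12.4% and 40.2%. From 102502001 to 102503000 (20 CpGs, 55 to 184 reads) WT had 32.4%, 36.7% and 40% and DKO had 32.6%, 54.3% and 34.7%. The groups overlapped in both. The largest difference among the 11 was at 102492001 to 102493000 (14 CpGs, 52 to 95 reads), with 44.3%, 50% and 36.5% in WT and 63.2%, 76.5% and 72.4% in DKO. There the groups did not overlap.

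Of the 136 windows of the locus with 3 CpGs and 5 reads in every sample, 2 had every DKO sample below the WT samples, where 4.06% of all such windows did. Neither had the reads to be tested. The window with the larger difference, at 102530001 to 102531000 (13 CpGs), had 54.3%, 47.9% and 38.2% in WT and 7.14%, 28.0% and 26.7% in DKO, where DKO replicate 1 had 14 reads. That is a difference of -26.2 points in a gene whose other windows were mostly higher in DKO.

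The genome-wide window test called 5 of the 81 tested windows of the locus higher in DKO and 0 lower. It is a quasi-binomial model of read counts with limma-type moderation of the dispersion, and a call needs a Benjamini-Hochberg adjusted p under 0.05 and a difference of 10 points. Over all 774732 tested windows 0.49% were called higher and 0.00723% lower. The stretch was made by merging called windows of this test, so the 4 calls inside it were fixed by that choice. The fifth was at 102500001 to 102501000 (10 CpGs, 45 to 76 reads), with 73.8%, 52.5% and 55.6% in WT and 88.5%, 86.8% and 91.3% in DKO. The DKO samples were all above the WT samples in 23 of the 81 windows and all below in 0, against 9.05% and 3.75% of all tested windows. At an unadjusted p of 0.05, 22 of the 81 were higher and 0 lower, where 7.32% and 1.95% of all tested windows were. The calls depended on each library. Leaving out WT replicate 1, 2 or 3 gave 0, 1 and 0 calls in the locus, where 0.0504%, 0.0645% and 0.0572% of all tested windows were called higher. Leaving out DKO replicate 1, 2 or 3 gave 1, 0 and 2, where 0.0452%, 0.00368% and 0.0914% were. Minima of 10 and 40 reads gave 0, with 0.0221% and 0.112% called over all windows. The locus calls were also 0 with limma on log2 ratios, which called 0 of the 774732 windows. By limma 19 windows of the locus were higher and 0 lower at an unadjusted p of 0.05, where 6.27% and 1.61% of all windows were.

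Read depth was compared between the groups as a separate measure, although windows had to reach 20 reads in every sample to be called. Relative to the autosomal mean per CpG, the stretch had 0.906, 1.18 and 0.834 in WT and 0.913, 1.05 and 0.978 in DKO. The means were 0.975 ± 0.185 and 0.980 ± 0.0686 (SD, n = 3), with an exact permutation p = 0.9 (two-sided), where 3 samples against 3 cannot go below p = 0.1. The p-value refers to the spread between these samples. The spread of methylation between the DKO samples over the stretch was 4.05 times counting error, and that between the WT samples was 0.758 times. Without the window with 52 CpGs these were 3.80 and 1.78 times.

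Promoters of the pathway were mostly unmethylated in both groups. A list of 46 genes of phosphoinositide 3-kinase signalling had 39 genes with a placed promoter, and all 51 of their promoters lay in tested windows. The only one in a called window was the internal promoter of Pik3r1, for which the locus was picked, and 0 of the other 50 were (quasi-binomial test with limma-type moderation). That call was lost when WT replicate 1, WT replicate 3 or DKO replicate 2 was left out. Of the 19781 placed promoters in tested windows, 0.652% lay in a window called higher and 0.0758% in one called lower. At an unadjusted p of 0.05, 10 of the 50 were higher and 5 lower, where 13.3% and 5.32% of all promoters in tested windows were. With limma 4 were higher and 1 lower, where 6.32% and 2.84% were. The 50 include the upstream promoter of Pik3r1, which lies in the locus chosen on this contrast. It is among the higher ones in both counts. Promoters in the same window share its result, and each is counted, in the list and among all promoters. With at least 20 reads in every sample, 33 promoters of the whole list had a median of 0% in both groups. Of these, 32 were under 10% in WT, and the other was the internal Pik3r1 promoter, at 10.8%. That depth filter left out promoters of the list that were methylated in WT, at 100%, 99.3% and 40.2%. They had 10, 11 and 14 reads in the lowest sample. All 11807 promoters with such depth had medians of 0% and 0.330%.

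Among the other class IA subunits, the promoter of Pik3ca, a catalytic subunit, was at 0% in all samples, where 0 of 314 WT and 0 of 394 DKO reads allow up to 0.955% and 0.761%. Pik3cb, another catalytic subunit, had 7.48% in WT replicate 1 and 0% in the other samples. For Pik3cd, the catalytic subunit most abundant in blood cells, 1 of 3 promoters was methylated, at 100% ± 0 in WT and 99.0% ± 1.65 in DKO. The other regulatory subunits, Pik3r2 and Pik3r3, had promoters at 0% to 1.39% in WT and 0% to 7.33% in DKO. In WT replicate 1 the Pik3r2 promoter had only 3 reads. The internal Pik3r1 promoter, by contrast, had means of 10.8% ± 18.8 and 50.3% ± 24.5 (SD, n = 3).

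The promoters most like the stretch in their 6 sample levels were those of Zfp112, a zinc finger gene, Padi4, which encodes a peptidylarginine deiminase, and L1td1. Likeness was the root mean square difference from the levels of the whole stretch, over 6 samples and 11807 promoters, and it used the same group contrast. It was 5.12 points for Zfp112, with 23.1%, 14.3% and 18.2% in WT and 35.3%, 47.6% and 33.3% in DKO. Padi4 had 6.54 points, with 8.16%, 12.5% and 18.2% in WT and 34.8%, 55.1% and 45.2% in DKO. L1td1 had 6.73 points, with 25.4%, 17.1% and 7.14% in WT and 29.5%, 41.3% and 34.9% in DKO. DKO replicate 2 was the highest sample in all 3, as their choice by likeness to the stretch favours.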

How the data were processed

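Per the labels, DNA of sorted LSK cells was sheared, adapter-ligated, bisulfite-treated and amplified. The authors deposited 1 table of counts, methylated and total, for every CpG and each of 6 samples, neither normalised nor pooled. The submitters' processing notes name BSMAP 2.74 and mm9. Trimming, filters and duplicate removal were not given in the sources used here, and kept duplicates would make error larger than counting error. The table had 0 repeated CpGs, 0 values with more methylated than total reads and 0 columns of other samples. Its positions were read as counted from 0 and are printed from 1.

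Reads were summed over non-overlapping 1 kb windows. Autosomal windows of 3 or more CpGs, each sample with 20 or more reads, were tested by a quasi-binomial model of the 2 groups, with the dispersion moderated as by limma's squeezeVar (23.7 prior degrees of freedom, floor of 1) and Benjamini-Hochberg adjustment. The test was checked on simulated data with a single fixed spread between samples. That check does not cover windows as variable as the one with the internal start site. Called windows at most 1 kb apart were merged, which gave the stretch. RefSeq promoters (300 bases) were placed where all listed CpGs of the span fitted, at least 80% of the sequence's CpGs were listed and only 1 place on the chromosome did so. This placed 21027 of 31387. A promoter's window is the one with its start site. Python 3.11.15, scipy 1.17.1 and limma 3.58.1 were used.

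The members, lists and tests were chosen with earlier results of these data known. The named genes are Pik3r1, the class IA subunits, genes of the list whose promoter window was called, and the 3 promoters most like the stretch. Alternatives were 10 or 40 reads, 500 bp windows, limma on log2 ratios, the replicate number as a block, other CpG weights, borders and coverage minima, and leaving out each sample.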

Additional observations from a re-analysis of the deposited data

How the results depend on the processing

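The count of windows of the locus called higher was 5. It was 0 with minima of 10 and of 40 reads, with 500 bp windows, with limma on log2 ratios and with the replicate number as a block, and 0 to 2 when each sample was left out. The 500 bp windows, limma and the block called 0 windows in the whole genome. At an unadjusted p of 0.05 the 5 settings first named had 28, 9, 17, 19 and 21 windows of the locus higher, beside 5.97%, 8.7%, 7.27%, 6.27% and 6.35% of all windows, and 2, 0, 0, 0 and 1 lower, beside 2.32%, 1.56%, 2.15%, 1.61% and 1.94%. The 1 called promoter of the pathway list was 0 with both minima, 500 bp windows, limma and the block, and 0 to 1 when each sample was left out. The cause was not tested. The replicate numbers showed at most a very weak pairing of the samples. Deviations of same-numbered samples had Pearson's r of 0.00332 to 0.00359 across windows, and those of other pairs -0.00204 to -0.00136. Each sample correlated best with its own number, as a hint from the data only.

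The difference over the stretch, 26.1 points, was 39.4 points within the 4 kb run, and, in settings chosen after seeing the data, 43.1 points over called windows only and 38.0 points without the window with the most CpGs. It was 21.5 to 28.8 points when each sample was left out. The rest of the locus differed by 4.93 points, and by 7.61 points over its 182 CpGs that had 3 or more reads in each sample. The run of 4 kb was 2.0 kb with 500 bp windows and with a minimum of 30 points, and 4.0 kb without any one sample. The difference in relative depth, 0.00519, was -0.0110 against the rest of the locus, -0.0291 and -0.0296 without WT replicate 1 and DKO replicate 2, and -0.0651 to 0.11 when each sample was left out. For the upstream promoter, equal CpG weights gave no value, since 0 of its CpGs had a read in every sample. Single CpGs of the stretch had at most 21 and 32 pooled reads in WT and DKO, so levels at single CpGs are coarse.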
